A study of Homo sapiens with 21 samples.

Results

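The mRNAs of the hnRNP A/B and D family, HNRNPA0, HNRNPA1, HNRNPA2B1, HNRNPA3, HNRNPAB, HNRNPD and HNRNPDL, were followed as RNA targets across a series of crosslinking libraries. Clusters were taken when one of these 7 gene names was among the names deposited for the cluster, out of 18003 gene names in the series. They gave 863 of 756278 clusters in the 11 fluorescent libraries and 150 of 70701 clusters in the 4 radiolabelled AGO2 libraries of a urea gel test. All 863 fluorescent clusters lay inside the RefSeq span of the named gene. The genes are HNRNPA0 (chr5:137745651-137754363, minus strand), HNRNPA1 (chr12:54280726-54287087, plus), HNRNPA2B1 (chr7:26189927-26200746, minus), HNRNPA3 (chr2:177212794-177223959, plus), HNRNPAB (chr5:178204533-178211163, plus), HNRNPD (chr4:82352498-82373991, minus) and HNRNPDL (chr4:82422564-82430462, minus), all in hg38.

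The series tested PAR-CLIP without radioactivity in Flp-In T-REx 293 cells, an established human embryonic kidney line, each carrying a stably integrated FLAG-HA tagged protein that was pulled down through FLAG. PAR-CLIP labels RNA with 4-thiouridine, which pairs as C after crosslinking, so T-to-C changes in the reads mark the crosslinked site. The fluorescent libraries covered 5 proteins. RNase I was used on FUBP3 and on KHSRP in 3 doses (0.15, 0.5 and 1.5 U/ul), on AGO2 in the lowest and highest of these, and on CPSF1 in the middle one. U2AF1 libraries had 1.5 or 15 U/ml of an RNase A and T1 mix by their titles, where the shared protocol text names RNase I for chromatin. Radiolabelled libraries used RNase T1, at 0.5 U/ul for FUBP3 and KHSRP and at 1 U/ul for AGO2, with 2 AGO2 libraries after a urea gel and 2 without it. Cells took 100 uM 4-thiouridine for 8 to 12 h before UV, except those for U2AF1, which took 250 uM for 2 h. KHSRP was pulled from a sonicated whole-cell lysate, U2AF1 from solubilised chromatin, and cytoplasmic proteins from a mild detergent lysate, per the labels' protocols, so protein and extract cannot be told apart. Outside the AGO2 gel libraries each condition was 1 library, and intervals there cover counting error only.

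The hnRNP A/B and D proteins carry paired RNA recognition motifs and act in splicing, mRNA transport, turnover and translation, and HNRNPD, also known as AUF1, is a classic binder of AU-rich decay elements in 3' UTRs. Several of these proteins bind their own mRNAs or those of their relatives. FUBP3 and KHSRP are KH-domain proteins of one family, KHSRP being known for AU-rich mRNA decay and microRNA maturation. U2AF1 reads the AG at the 3' end of introns, CPSF1 is the large subunit of the complex that recognises the polyadenylation signal, and AGO2 carries microRNAs.

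The stretches below are those the FUBP3 and KHSRP results turn on, printed in transcript direction from the deposited cluster sequences, with capitals at every match to a run of T (TTTT), to the word TATA, to the word TGTA or to the word TTGT. The HNRNPA2B1 3' UTR stretches and the upper HNRNPA0 pair lay within clusters of both proteins after RNase T1, and the others within merged sites of the RNase I libraries.
HNRNPA2B1 3' UTR, chr7:26191907-26191935 (minus strand): ataacgTTTTTcctttaaaaaaatttaag
HNRNPA2B1 3' UTR, chr7:26192145-26192169 (minus strand): attatttaataacattaccttactg
HNRNPA2B1 intron, chr7:26199115-26199144 (minus strand): gtTATAaaTGTAcattatccgtaatttcag
HNRNPA0 3' UTR, chr5:137752629-137752650 (minus strand): TTTTaTTTTTaataaatcattg
HNRNPA0 3' UTR, chr5:137752881-137752904 (minus strand): actctaTTTTTTTattattacttg
HNRNPA0 3' UTR, chr5:137752513-137752542 (minus strand): taattctttattcttgatgTGTActtagag
HNRNPAB 3' UTR, chr5:178211029-178211058 (plus strand): gttaaTTTTacTGTAcTTTTTggtaccttt
HNRNPA1 3' UTR, chr12:54285196-54285225 (plus strand): cTTGTGTAtccattatcatgTGTAatcaat
HNRNPA1 3' UTR, chr12:54285698-54285727 (plus strand): ctttaacagttaatatccaataatgtgtta
HNRNPD 3' UTR, chr4:82353957-82353986 (minus strand): TTGTTTTatttcttaattgctatgcttcag

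For U2AF1 the stretches shown are the first 30 bases of member clusters at 3' splice sites, with every AG in capitals. The same HNRNPA1 junction was covered in both U2AF1 libraries.
HNRNPA1 junction, chr12:54282791-54282820 (plus strand): ttcttacAGgtggctttggtggcAGccgtg
HNRNPA1 junction into the 3' UTR, from chr12:54286936 (plus strand): tcttttgccttttgcAGgaacgtccttgtg
HNRNPAB junction, from chr5:178207090 (plus strand): gcAGattgAGgccattgaattgccaatgga

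For AGO2 the stretches shown are microRNAs with the seed, bases 2 to 8, in capitals, and member clusters with the matching site in capitals, as deposited in a urea gel library.
hsa-miR-19b-3p: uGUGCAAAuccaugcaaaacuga
HNRNPA1 3' UTR: attttttttTTTGCACcccat
hsa-miR-16-5p: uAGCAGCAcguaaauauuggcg
hsa-miR-103a-3p: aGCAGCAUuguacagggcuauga
HNRNPDL coding sequence: cttttcaaagATGCTGCTag

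Total reads in clusters ran from 75383 to 2172248 in the fluorescent libraries and from 77572 to 929424 in the AGO2 gel libraries, and levels are given relative to that total, as RPM, the reads per 1000000 cluster reads of the library. The family took 0.512%, 0.328% and 0.326% of cluster reads in FUBP3 at 0.15, 0.5 and 1.5 U/ul, and 0.533%, 0.617% and 0.519% in KHSRP. It took 0.745% and 0.804% in U2AF1 at 1.5 and 15 U/ml, 0.0909% in CPSF1, and 0.0331% and 0.0155% in fluorescent AGO2 at 0.15 and 1.5 U/ul. U2AF1 thus had the highest share of its reads on the family and AGO2 the lowest, beside different RNases, labelling and extracts. The fluorescent AGO2 value depends on the total used. Of its reads in named clusters, 81.9% and 84.1% lay outside the UTR, coding, intron and splice site classes. That part was at most 10.4% in FUBP3, KHSRP and CPSF1. By share of clusters AGO2 was not lowest, with 0.412% and 0.337% on the family, beside 0.0701% in CPSF1. FUBP3 had 0.0782% to 0.124%, KHSRP 0.105% to 0.209% and U2AF1 0.487% and 0.761%.

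Across the fluorescent libraries the members were ordered differently. HNRNPA0 was highest in the 3 FUBP3 libraries, whose intervals overlapped, and all other libraries lay below them with overlapping neighbours. HNRNPA1 was highest in U2AF1, then KHSRP, then FUBP3, with overlapping intervals among the libraries of each protein except FUBP3 at 1.5 U/ul, which lay lower. HNRNPA2B1 and HNRNPD were highest in KHSRP and U2AF1 at 15 U/ml, where neighbouring intervals overlapped. HNRNPA3 and HNRNPAB were highest in U2AF1 at 1.5 U/ml, and HNRNPDL in U2AF1 at 15 U/ml, each clear of the next library. CPSF1 or AGO2 was lowest for every member but HNRNPA3, among libraries with a cluster, and CPSF1 overlapped a FUBP3 or KHSRP neighbour for HNRNPA0, HNRNPA3, HNRNPAB and HNRNPDL.

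**Figure D1:**
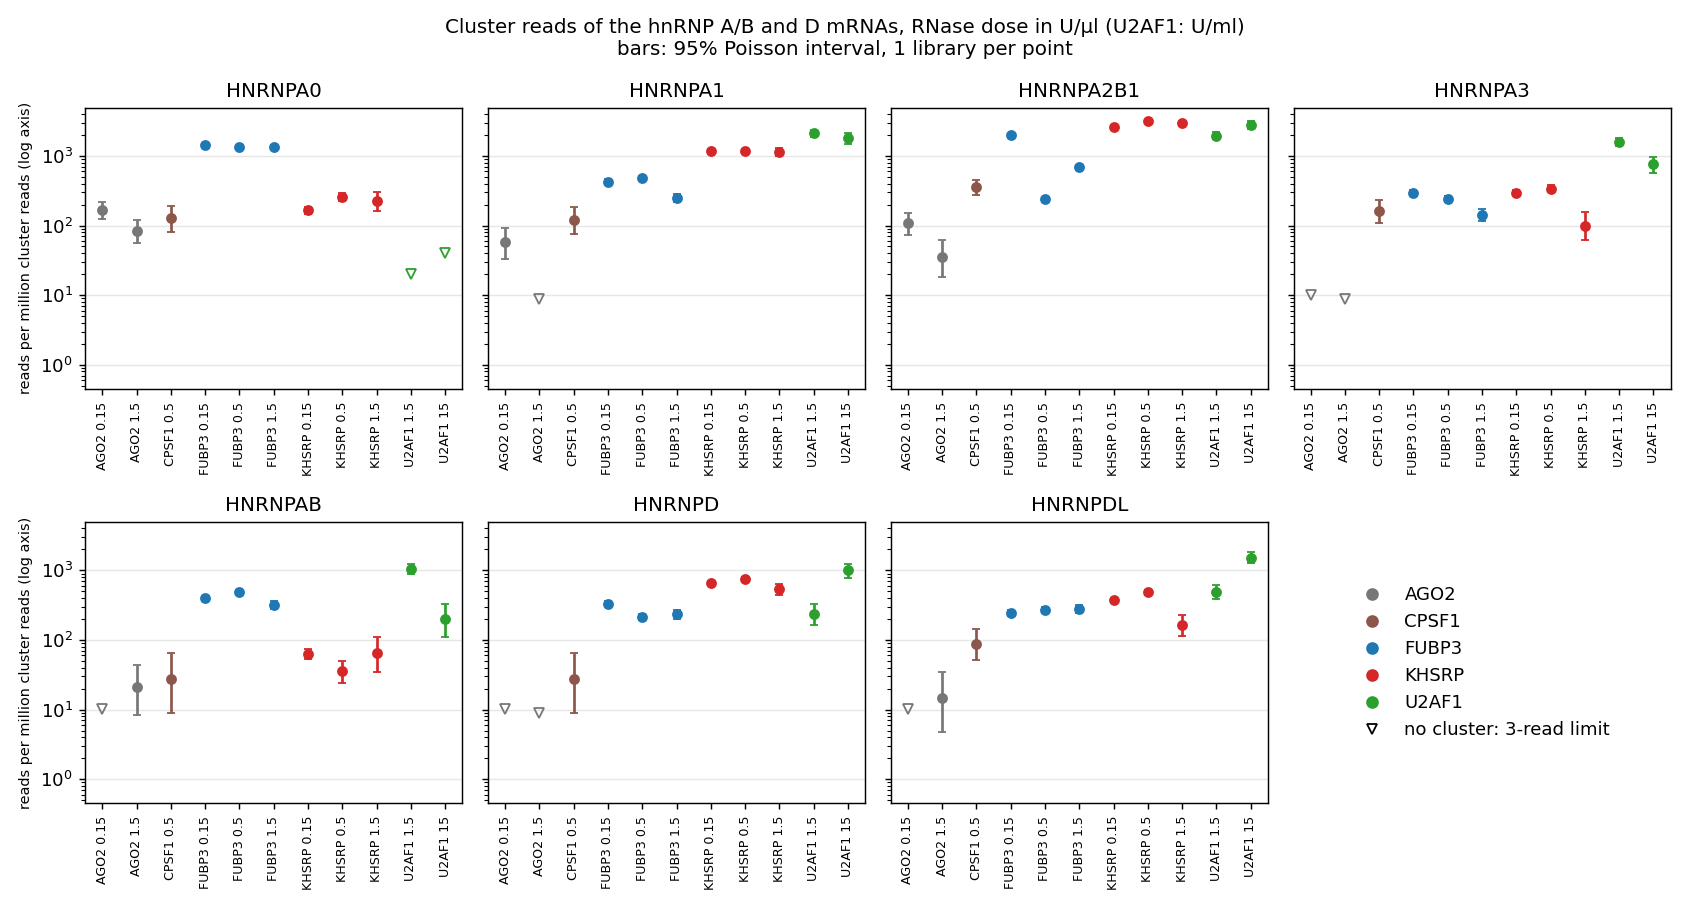
RPM (reads relative to the library's cluster reads, log axis) for each of the 7 mRNAs in each fluorescent library, with 95% Poisson intervals of the single library; open triangles mark libraries without a cluster, placed at the level of 3 reads. HNRNPA0 and HNRNPAB lay higher in the 3 FUBP3 libraries than in the 3 KHSRP libraries, and HNRNPA1 lay lower.

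The members parted between the related proteins FUBP3 and KHSRP. HNRNPA0 and HNRNPAB carried more FUBP3 reads at every RNase I dose, HNRNPA1 carried more KHSRP reads at every dose, and HNRNPA2B1 and HNRNPD leaned to KHSRP by amounts that varied with dose. Requiring 50 or more reads in all 6 libraries left 789 genes, among them HNRNPA1, HNRNPA2B1 and HNRNPD. Of these 3, HNRNPA1 alone was at least 2-fold higher in KHSRP at all 3 doses, where 17.7% of the 789 genes were, and 0 were higher in FUBP3, where 0.634% of genes were. With at least 10 reads, 3563 genes and all 7 members could be compared. HNRNPA0 and HNRNPAB then were at least 2-fold higher in FUBP3 at all doses (4.94% of genes) and HNRNPA1 was higher in KHSRP (6.79% of genes). The median gene had a log2 ratio of FUBP3 over KHSRP of -0.70, -0.65 and -0.57 at the 3 doses among the 789 genes, so those members stood less far from the typical gene than from 0. Scaled to the median gene of these 789 in place of the read total, HNRNPA1 no longer passed 2-fold at every dose and none of the 3 did. Among the 3563 genes the median was 0.09, 0.09 and -0.21.

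**Figure D2:**
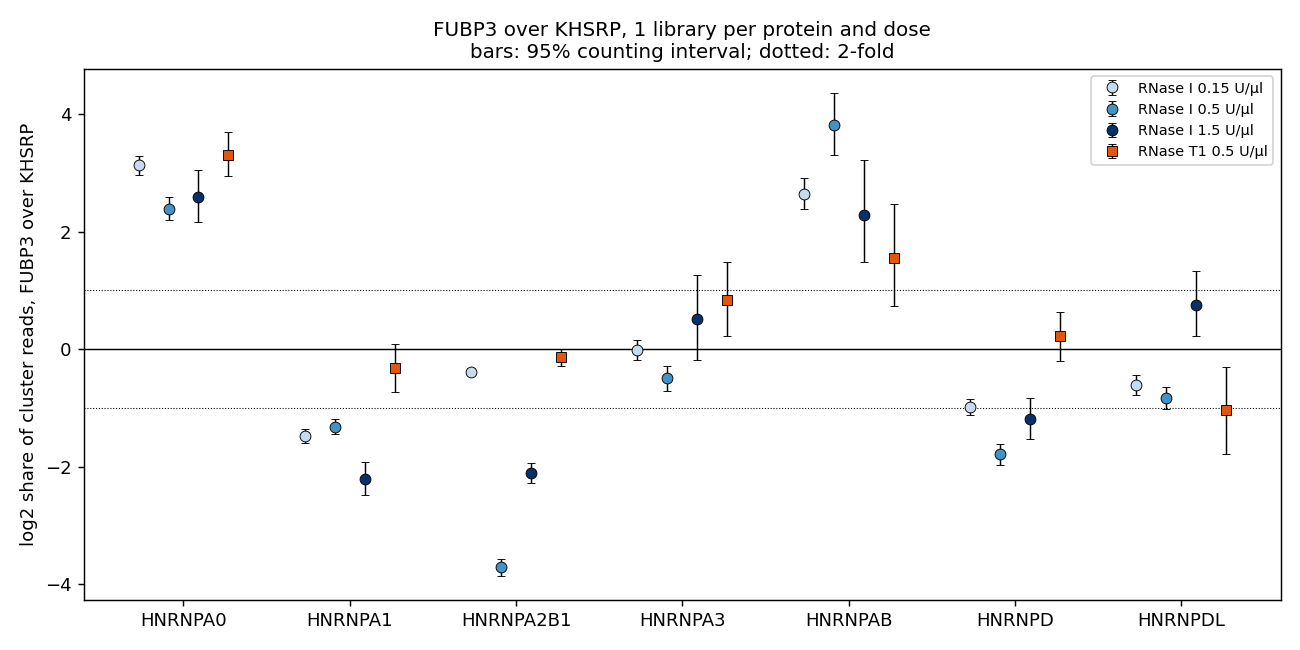
Log2 ratio of the share of cluster reads in FUBP3 over KHSRP for each mRNA at 3 RNase I doses and with RNase T1; bars are 95% counting intervals of single libraries and dotted lines mark 2-fold. HNRNPA0 and HNRNPAB lay above 2-fold in all 4 pairs of libraries, and the HNRNPA2B1 values were the most spread across doses.

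HNRNPA0, an intronless member that binds AU-rich RNA, had 1443, 1344 and 1357 RPM in FUBP3 at 0.15, 0.5 and 1.5 U/ul and 165, 257 and 225 in KHSRP. The level hardly moved across the FUBP3 doses, and every FUBP3 value lay above every KHSRP value. The log2 ratio was 3.13 (95% counting interval 2.97 to 3.29), 2.38 (2.19 to 2.58) and 2.59 (2.16 to 3.06), or 8.75-fold, 5.22-fold and 6.04-fold. In FUBP3, 98.8% to 99.8% of the HNRNPA0 reads were in the 3' UTR. Most fell in one merged region of 941 nt, chr5:137752112-137753052, which held 2050, 2183 and 984 FUBP3 reads against 284, 180 and 34 KHSRP reads. After RNase T1 this region held 899 FUBP3 reads in 11 clusters and 65 KHSRP reads in 5 clusters. The upper pair of stretches printed for HNRNPA0 lay in clusters of 156 and 355 FUBP3 T1 reads, with T-to-C shares of 78.2% and 59.7%. The KHSRP T1 clusters at the same bases held 17 reads each. They spanned 22 and 24 nt, where the FUBP3 clusters spanned 52 and 104 nt. The longer FUBP3 cluster also covered a KHSRP cluster of 18 reads, so these counts are not for equal lengths. Over the region as a whole the FUBP3 preference was also seen with T1.

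**Figure D3:**
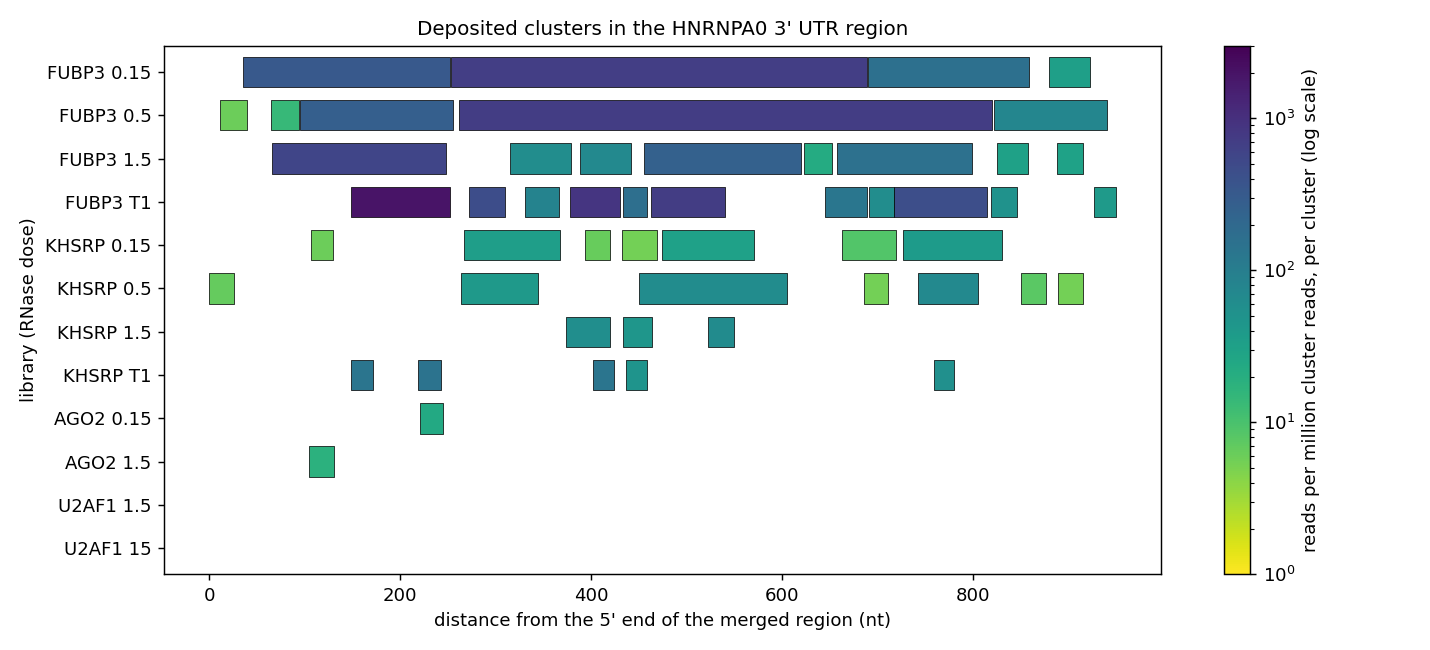
Deposited clusters in the HNRNPA0 3' UTR region, drawn by distance in nt from the 5' end of the merged region, with colour for RPM of each cluster (log scale). FUBP3 clusters covered most of the 941 nt at each RNase I dose, KHSRP clusters were shorter and paler, and U2AF1 had none.

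HNRNPAB, the CArG-box binding family member also known from the apolipoprotein B editing complex, followed HNRNPA0. It had 395, 496 and 317 RPM in FUBP3 and 63.1, 35.3 and 64.9 in KHSRP at 0.15, 0.5 and 1.5 U/ul. The groups of libraries did not overlap, and the log2 ratio was 2.65 (2.38 to 2.92), 3.81 (3.30 to 4.37) and 2.29 (1.49 to 3.22), the last resting on 13 KHSRP reads. A single site near the 3' end, chr5:178210922-178211111, held 531, 856 and 172 FUBP3 reads, which were 79.8%, 87.3% and 66.9% of the gene's reads. KHSRP had 79, 19 and 5 reads there. The window printed for HNRNPAB lay in 5 of the 6 RNase I libraries and was 56.7% T.

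HNRNPA1, a splicing repressor and the best studied family member, went the other way. It had 427, 476 and 251 RPM in FUBP3 and 1192, 1191 and 1154 in KHSRP, where it varied little with dose. The log2 ratio was -1.48 (-1.60 to -1.36), -1.32 (-1.45 to -1.20) and -2.20 (-2.48 to -1.93). Of its FUBP3 reads 94.6%, 93.9% and 95.6% lay in the 3' UTR at 0.15, 0.5 and 1.5 U/ul. In KHSRP 69.6%, 63.8% and 58.0% did. Introns held 233, 217 and 77 KHSRP reads against 39, 57 and 9 FUBP3 reads. Joint or other region classes held a further 554, 173 and 20 KHSRP reads and 0 FUBP3 reads. The largest KHSRP cluster at 1.5 U/ul, 49 reads at chr12:54284485-54284544, was intronic. The KHSRP preference was thus not confined to the 3' UTR. The 3' UTR held several separate sites with different preferences. At chr12:54285575-54285845 KHSRP had 766, 285 and 50 reads and FUBP3 110, 106 and 16. At chr12:54285170-54285501 the RPM values were closer, 225, 232 and 185 in KHSRP and 149, 155 and 86.4 in FUBP3, and the FUBP3 reads there gathered in a cluster around the TTGTGTA window printed above. That cluster had 224 of the 251 FUBP3 reads of the region at 0.15 U/ul, 284 of 306 at 0.5 U/ul and 65 of 70 at 1.5 U/ul. KHSRP had 1 cluster of 332 nt across the region at 0.15 U/ul and 3 shorter ones at each higher dose.

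HNRNPA2B1, which gives the A2 and B1 isoforms and carries mRNAs along the cytoskeleton, had 2584, 3122 and 2947 RPM in KHSRP. In FUBP3 it had 1981, 238 and 684 at 0.15, 0.5 and 1.5 U/ul. The KHSRP levels were close to each other and the FUBP3 levels were not. The log2 ratio of FUBP3 over KHSRP was -0.38 (-0.45 to -0.32), -3.71 (-3.85 to -3.57) and -2.11 (-2.28 to -1.94) at the same doses.

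The spread over FUBP3 doses came from a 743 nt region of the 3' UTR, chr7:26191611-26192353. It held 2951, 38 and 319 FUBP3 reads and 1445, 662 and 279 KHSRP reads at 0.15, 0.5 and 1.5 U/ul. For FUBP3 the log2 share at 0.15 over 0.5 U/ul was 6.51 (6.05 to 7.01) in the region, 91.1-fold, and 0.06 (-0.14 to 0.26) over the rest of the gene. For KHSRP the same ratio was -0.14 (-0.27 to -0.0015) in the region as a whole. In all, 2844 of the FUBP3 reads at 0.15 U/ul lay in one cluster of 378 nt, chr7:26191853-26192230, with 669 distinct read sequences and a T-to-C share of 24.2%. At 1.5 U/ul clusters of 241 and 71 reads lay inside that stretch, with T-to-C shares of 27.0% and 32.4%. At 0.5 U/ul no cluster was listed there, and the nearest ones, of 8 and 30 reads, lay downstream. KHSRP shared part of this gap at 0.5 U/ul, where its clusters of 218 and 279 reads ended at chr7:26191790 and began again at chr7:26192007. At 0.15 U/ul a KHSRP cluster of 1094 reads and at 1.5 U/ul one of 175 reads covered most of the bases between, and clusters 2 and 3 of that KHSRP group at 0.5 U/ul were not listed.

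The files carry a conversion specificity score for each cluster, whose definition was not given in the sources used here, and no cluster of the FUBP3 file at 0.15 U/ul scores under 0.602. The 2844-read cluster scored 0.604, just inside that minimum. In the FUBP3 file at 0.5 U/ul, cluster groups 265480 and 265482 flank the stretch and the number between them was not listed, and 57.8% of group numbers were listed in that file as a whole. Whether a cluster in this stretch fell under the score minimum at 0.5 U/ul was not tested. Without the region, 0 of 7 members passed 2-fold between these doses and HNRNPA2B1 passed 2-fold toward KHSRP at every dose. With clusters scoring at least 0.7 alone, the HNRNPA2B1 log2 ratio of 0.15 over 0.5 U/ul was 0.15.

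RNase T1, in radiolabelled libraries at 0.5 U/ul, showed the region from independent clusters, with 847 FUBP3 and 307 KHSRP reads, or 4709 and 2437 RPM. The stretch chr7:26191907-26191935 was in clusters of 446 FUBP3 and 110 KHSRP reads, and chr7:26192145-26192169 in clusters of 135 and 84 reads. Both stretches fall in the 378 nt for which FUBP3 had no cluster with 0.5 U/ul RNase I. AGO2 had 25 and 12 reads in the region, U2AF1 58 and 14, and CPSF1 0, which allows up to 3 reads.

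**Figure D4:**
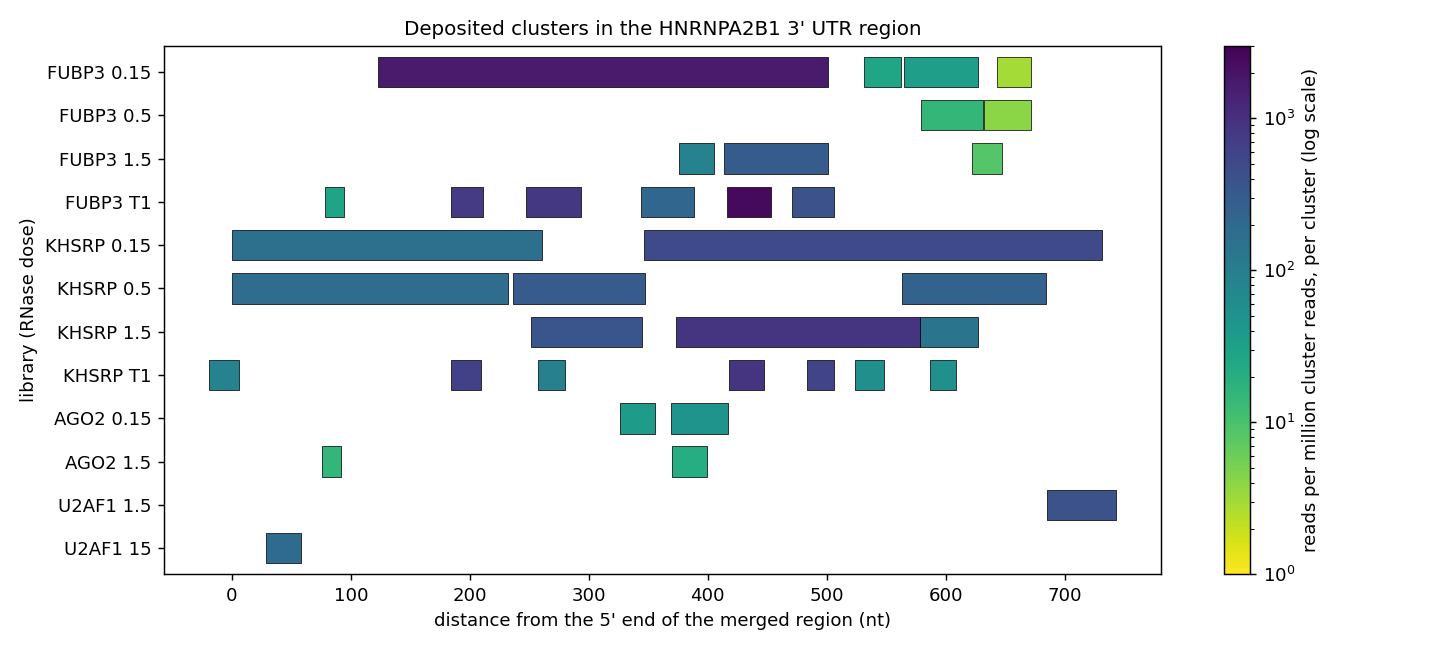
Deposited clusters in the HNRNPA2B1 3' UTR region by distance in nt from the 5' end of the merged region, with colour for RPM of each cluster (log scale); CPSF1 had no cluster there. The 378 nt FUBP3 cluster at 0.15 U/ul has no counterpart in the row for 0.5 U/ul, while both T1 rows have clusters inside it.

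Outside the 3' UTR, HNRNPA2B1 showed KHSRP reads in introns. The intronic region chr7:26198972-26199644 held 870, 465 and 120 KHSRP reads against 121, 23 and 29 FUBP3 reads. The region chr7:26197829-26198625, of intron and coding classes, held 981, 568 and 50 KHSRP reads against 54, 77 and 83. In RPM the latter had 452, 627 and 250 in KHSRP and 32.1, 39.0 and 102 in FUBP3. Its KHSRP clusters of 238 and 183 reads at 0.15 and 0.5 U/ul had a joint intron and coding class. At 0.15 U/ul the KHSRP clusters in these regions ran up to 644 and 584 nt, and at 1.5 U/ul up to 70 and 77 nt. Over the gene without the 3' UTR region the log2 ratio of FUBP3 over KHSRP was -3.07, -3.45 and -2.42 at the 3 doses, so the KHSRP preference there held at each dose.

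HNRNPD had 333, 214 and 234 RPM in FUBP3 and 657, 740.0 and 534 in KHSRP, with log2 ratios of -0.98 (-1.13 to -0.84), -1.79 (-1.97 to -1.61) and -1.19 (-1.54 to -0.83). Each KHSRP value lay above each FUBP3 value, short of 2-fold at 0.15 U/ul. Introns held 81.4%, 77.5% and 69.2% of its KHSRP reads, the highest of any member at each dose, and 41.1%, 64.7% and 46.8% of its FUBP3 reads. Its 3' UTR site chr4:82353796-82354004 had 215, 24 and 0 FUBP3 reads and 129, 47 and 0 KHSRP reads, so at 1.5 U/ul neither protein had a cluster there. The T-rich window printed above lay in KHSRP clusters at 0.15 and 0.5 U/ul and in a FUBP3 T1 cluster. Of the FUBP3 reads at 0.15 U/ul, 198 lay beside it, in a cluster at chr4:82353880-82353958. RNase T1 gave 74 and 9 reads at the site.

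HNRNPA3, a close relative of the A2/B1 proteins, had 296, 239.9 and 142 RPM in FUBP3 and 297, 339 and 99.9 in KHSRP. Its log2 ratios of -0.01 (-0.18 to 0.16), -0.50 (-0.71 to -0.29) and 0.51 (-0.19 to 1.27) did not keep one direction. HNRNPDL, the D-like member, had 245, 269 and 279 in FUBP3 and 372, 480 and 165 in KHSRP, with log2 ratios of -0.61 (-0.78 to -0.43), -0.84 (-1.02 to -0.65) and 0.76 (0.23 to 1.33). For both genes the KHSRP library at 1.5 U/ul held 33 reads or fewer. With distinct sequences in place of reads, the log2 ratio at 1.5 U/ul was -0.0006 for HNRNPA3 and -0.02 for HNRNPDL.

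After RNase T1, where genes were taken from RefSeq spans because the clusters carried no member name, the log2 ratio of FUBP3 over KHSRP was 3.31 (2.95 to 3.70) for HNRNPA0 and 1.56 (0.73 to 2.48) for HNRNPAB. Both lay on the FUBP3 side, as they did after RNase I. It was -0.32 (-0.73 to 0.09) for HNRNPA1, -0.14 (-0.28 to 0.0034) for HNRNPA2B1, 0.84 (0.22 to 1.48) for HNRNPA3, 0.22 (-0.20 to 0.64) for HNRNPD and -1.03 (-1.78 to -0.30) for HNRNPDL. HNRNPA1, HNRNPA2B1 and HNRNPD lay on the KHSRP side with RNase I. Over the whole gene their T1 intervals spanned 0, and the HNRNPD value lay on the FUBP3 side. Within HNRNPA2B1 the T1 reads split as the RNase I reads at 0.15 U/ul did. The 3' UTR region had a log2 ratio of 0.95 (0.76 to 1.14). The rest of the span, with 69 FUBP3 and 400 KHSRP reads (384 and 3176 RPM), had -3.05 (-3.44 to -2.68), or 8.28-fold toward KHSRP.

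Where on the mRNA the reads lay differed between the proteins. The 3' UTR held 92.2%, 87.8% and 86.2% of the members' FUBP3 reads at 0.15, 0.5 and 1.5 U/ul, against 40.1%, 39.8% and 33.2% of reads over all named genes. For KHSRP it held 46.6%, 47.1% and 58.2%, against 12.3%, 13.2% and 11.3% over all named genes. Introns held 7.09% to 11.8% of the members' FUBP3 reads and 38.0% to 42.7% of their KHSRP reads. Over all named genes introns held 51.2% to 58.5% of FUBP3 reads and 75.6% to 77.6% of KHSRP reads. Pooled over the family, reads thus lay more in 3' UTRs and less in introns than reads pooled over all named genes. The members differed, and in FUBP3 at 0.5 U/ul HNRNPA2B1 (31.2% in the 3' UTR) and HNRNPD (31.0%) lay below the share of all named genes, while HNRNPA0 stood at 98.8%. HNRNPA0, which had no intron cluster in any library, is among the members in these shares. The role of the sonicated KHSRP lysate in the intronic share was not tested.

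**Figure D5:**
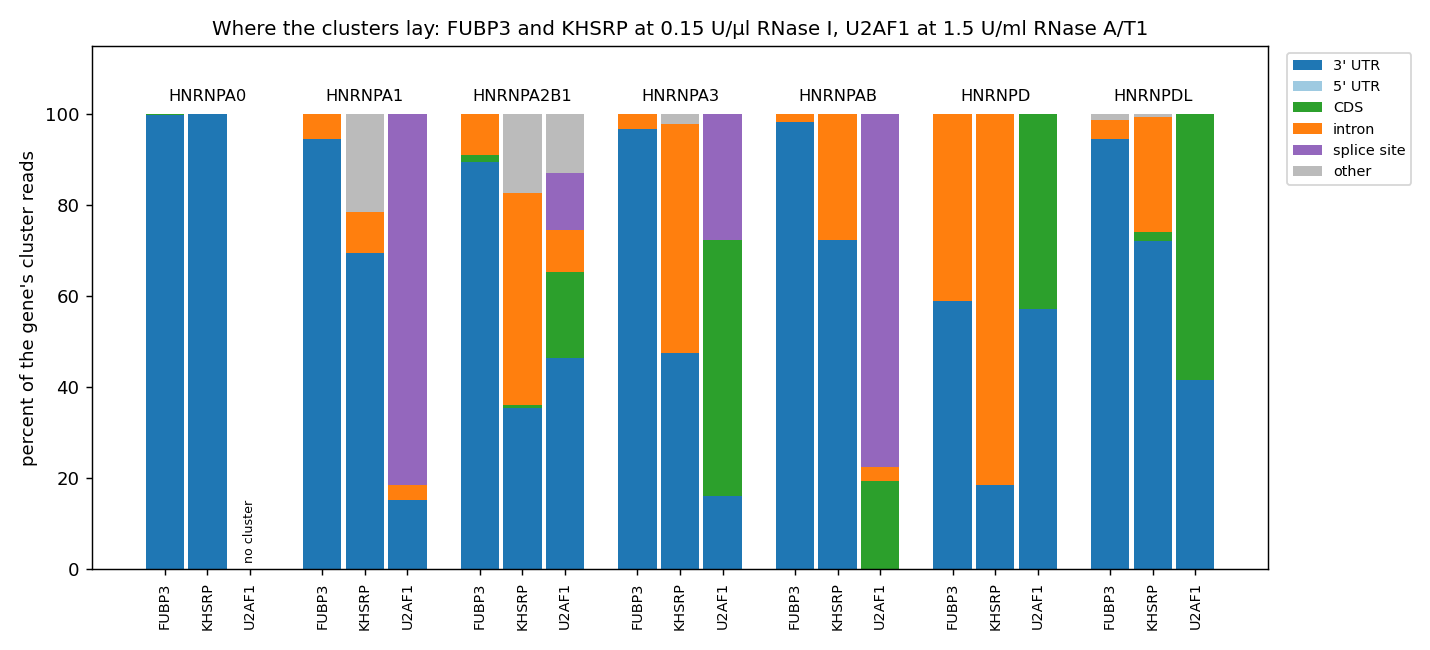
Percent of each gene's cluster reads by deposited region class for FUBP3 and KHSRP at 0.15 U/ul RNase I and U2AF1 at 1.5 U/ml RNase A and T1. Other stands for clusters with a joint class of several regions or another class. U2AF1 clusters with a joint class naming a splice site or the 3' UTR were counted in that class. HNRNPD had most of its KHSRP reads in introns, and HNRNPA1 and HNRNPAB had most of their U2AF1 reads at splice sites.

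Merging clusters that overlapped by at least 1 nt over the fluorescent libraries gave 378 member sites. FUBP3 had clusters in 210 of them and KHSRP in 232, and 107 held both, which is 51.0% of the FUBP3 sites and 46.1% of the KHSRP sites. Over the sites of all named genes, merged in the same way, 44915 held both, or 13.2% of FUBP3 sites and 18.5% of KHSRP sites. The part of read depth per gene in this difference was not tested. For HNRNPA0, 5 of the 6 KHSRP sites were also FUBP3 sites, while FUBP3 had 23. For HNRNPAB, FUBP3 had 10 sites, KHSRP 7, and 2 were shared. HNRNPD, the member with the longest span, had 112 sites, 62 in FUBP3, 75 in KHSRP and 30 in both. Only 27 sites had a FUBP3 cluster and 19 a KHSRP cluster at all 3 doses, and 11 of those 19 were in HNRNPA2B1.

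The members' clusters were T-rich, as were those of other genes. The central 21 nt of 3' UTR clusters were searched on the transcript strand for 4 words that can overlap, the run TTTT, the word TATA, the word TGTA and the word TTGT. For FUBP3 at 0.15 U/ul, TTTT was in 25.0% of 76 member clusters against 34.0% of all 30058 clusters of the same class, TGTA in 18.4% against 23.0%, TTGT in 25.0% against 29.1% and TATA in 10.5% against 14.7%. For KHSRP at 0.15 U/ul, TTTT was in 26.4% of 72 member clusters and in 26.4% of all 14346. There TGTA was in 9.72% of member clusters against 29.8%, TATA in 9.72% against 19.4% and TTGT in 19.4% against 29.1%. At 0.15 U/ul ATTTA was in 3.95% of FUBP3 member clusters against 6.89%, and in 5.56% of KHSRP member clusters against 7.57%. In KHSRP at 1.5 U/ul TGTA was in 41.4% of 29 member clusters against 26.8%, so the TGTA share of the members was not steady across doses.

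Between RNase I doses of FUBP3 and of KHSRP few members passed 2-fold, although smaller shifts were clear of counting error for several. For FUBP3 at 0.15 against 0.5 U/ul, 1 of 7 members, HNRNPA2B1, was at least 2-fold higher at 0.15 U/ul (2.04% of 5202 genes), with a log2 ratio of 3.05 that rests on the region above. At 0.5 U/ul 0 of 7 were higher (2.75% of genes). The other 6 log2 ratios lay between -0.33 (HNRNPAB) and 0.64 (HNRNPD). Against 1.5 U/ul, 2 of 7, HNRNPA2B1 (1.53) and HNRNPA3 (1.06), were higher at 0.15 U/ul (2.43% of 3741 genes) and 0 were higher at 1.5 U/ul (7.08%). HNRNPA1 followed with 0.77 and HNRNPDL was lowest with -0.19. HNRNPD at 0.15 over 0.5 U/ul and HNRNPA1 at 0.15 over 1.5 U/ul had counting intervals above 0. For KHSRP at 0.15 against 1.5 U/ul, 3 members had 50 reads in both libraries, and 0 of them were higher at 0.15 U/ul (6.17% of 826 genes) or at 1.5 U/ul (10.8%). Their log2 ratios were 0.05 for HNRNPA1, -0.19 for HNRNPA2B1 and 0.30 for HNRNPD. With at least 10 reads, 2 of 7 members, HNRNPA3 (1.57, on 20 reads at 1.5 U/ul) and HNRNPDL (1.18, on 33), were past 2-fold toward 0.15 U/ul (7.98% of 3997 genes), and 0 of 7 toward 1.5 U/ul (31% of genes). By distinct sequences HNRNPA3 stood at 1.28 and HNRNPDL at 0.46, the latter short of 2-fold.

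U2AF1 covered every member but HNRNPA0. HNRNPA0 has no intron and had no cluster in either library, which allows up to 20.3 and 39.8 RPM at 1.5 and 15 U/ml. HNRNPA1 had 2123 and 1791 RPM, HNRNPA2B1 1953 and 2773, HNRNPA3 1594 and 756, and HNRNPAB 1051 and 199. HNRNPD had 237 and 995, and HNRNPDL 488 and 1526. The log2 share at 1.5 over 15 U/ml was 1.08 (0.65 to 1.52) for HNRNPA3 and 2.40 (1.63 to 3.27) for HNRNPAB. For HNRNPD it was -2.07 (-2.69 to -1.47) and for HNRNPDL -1.64 (-2.09 to -1.21). HNRNPA1 (0.25, -0.05 to 0.55) and HNRNPA2B1 (-0.51, -0.77 to -0.24) moved less, so the direction was not the same for all. HNRNPAB rested on 15 reads at 15 U/ml and HNRNPD on 35 at 1.5 U/ml. The share of all genes that moved as far was not counted.

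At 1.5 U/ml, 7 of 39 member clusters lay at a splice site (17.9%, 95% Wilson interval 8.98 to 32.7), 6 of them at a 3' splice site, against 9.08% of all 5946 named clusters. At 15 U/ml it was 1 of 21 (4.76%, 0.846 to 22.7) against 7.25%, so the intervals of the members overlapped. The HNRNPA1 junction at chr12:54282791-54282826 held 105 reads at 1.5 U/ml and 63 at 15 U/ml. The HNRNPA1 junction into the 3' UTR, where a run of pyrimidines precedes the AG in the stretch printed above, had 66 reads at 1.5 U/ml. HNRNPAB had 120 reads at its junction at 1.5 U/ml with a T-to-C share of 95.8%, and HNRNPA3 65 reads at chr2:177216671-177216695. Neither of these had a cluster at 15 U/ml.

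Processed copies make part of these U2AF1 values uncertain. Clusters named for HNRNPA1 or HNRNPA3 pseudogenes or for an HNRNPA1-like copy held 225 reads at 1.5 U/ml and 178 at 15 U/ml, equal to 20.5% and 29.4% of the member reads. At 15 U/ml the HNRNPA3 pseudogenes had 89 reads, more than the 57 of HNRNPA3 itself. At 1.5 U/ml they had 164 reads beside its 235, so the HNRNPA3 ratio between the doses is among the uncertain values. The HNRNPA1 pseudogenes had 56 reads beside 313 of HNRNPA1 at 1.5 U/ml and 76 beside 135 at 15 U/ml. Its levels and ratio are thus uncertain too. In the FUBP3 and KHSRP RNase I libraries such clusters came to at most 0.757% of the member reads.

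CPSF1 at 0.5 U/ul had few reads on the family. HNRNPA2B1, the 1 member with at least 50 reads in both libraries, had 355 RPM in CPSF1 and 3122 in KHSRP, a log2 ratio of -3.14 (-3.52 to -2.78). It was the 1 of 1 lower in CPSF1 (18.9% of 454 genes), with 0 of 1 higher (31.3% of genes). The other members held 5 to 29 CPSF1 reads. The largest CPSF1 clusters of HNRNPA3, 24 reads at chr2:177223843-177223876, and of HNRNPA2B1, 23 reads at chr7:26190115-26190160, lay in the 3' UTR near the annotated end of each gene. Those of the other members did not. HNRNPA1 (9 reads, chr12:54285377-54285407) and HNRNPDL (16 reads, chr4:82424616-82424653) had theirs farther from the end in the 3' UTR. HNRNPA0 had 16 reads in the 5' UTR, and HNRNPAB and HNRNPD had 5 each in introns. Of 15 family clusters 6 were in the 3' UTR (11.2% of all named clusters) and 6 in introns (75.9%).

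In fluorescent AGO2 at 0.15 and 1.5 U/ul, HNRNPA0 had 166 and 83.4 RPM and HNRNPA2B1 108 and 35.7. HNRNPA1 had a single cluster, of 17 reads, at 0.15 U/ul, and HNRNPAB and HNRNPDL had single clusters of 7 and 5 reads at 1.5 U/ul. HNRNPA3 and HNRNPD had none, which allows up to 10.1 and 8.93 RPM. One HNRNPA2B1 3' UTR cluster at 0.15 U/ul, chr7:26191937-26191984, shared sequence with a cluster in every other AGO2 library. These held 14 and 7 reads here and 90, 38, 8 and 7 in the gel libraries. The clusters at 1.5 U/ul and in the A library with the gel were not matched to each other. The 0.15 U/ul cluster lay inside the 743 nt region described for FUBP3 and held no match to the microRNA seeds searched.

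Matches to the seeds of 14 microRNA families were a smaller share of member clusters than of all clusters in each AGO2 library. In the fluorescent libraries 0 of 10 and 1 of 8 member clusters had one, against 23.3% and 17.5% of all named clusters. They were in 2 of 68 and 3 of 56 member clusters of the libraries without gel (2.94% and 5.36%), against 11.3% and 14.9% of all named clusters. With the gel they were in 2 of 20 and 1 of 6 (10.0% and 16.7%) against 19.0% and 28.5%. The Wilson intervals, 0.810 to 10.1 and 1.84 to 14.6 without the gel, lay below the share of all clusters. In the B library this was narrow, 14.6 against 14.9%. Those of the other libraries did not lie below it. These intervals treat clusters as independent, but HNRNPA0 gave 16 and HNRNPA2B1 20 of the 68 clusters in the A library without gel. Many of the same stretches recurred in the B library without it. Whether the family as a set holds fewer seed matches was therefore not tested. The HNRNPA1 3' UTR carried the miR-19 match TTTGCAC printed above in all 4 gel libraries, with 331 and 142 reads where the gel was omitted and 34 and 44 where it was run, the largest HNRNPA1 cluster in each. In hg38 the match lies at chr12:54284810-54284816, inside clusters of FUBP3 at 0.5 and 1.5 U/ul (402 and 28 reads) and of KHSRP at 0.15 U/ul (326 reads). Neither fluorescent AGO2 library had a cluster there. An identical stretch named HNRNPA1P48 had 32 and 8 reads in the A libraries, so reads may be split between the copies. The HNRNPDL coding site for the miR-15/16 and miR-103 seeds had 18 and 14 reads in the libraries lacking the gel and 5 in the A library after it.

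The urea gel comparison was the one with replicates, labelled A and B, and it asked whether omitting the gel step changes what AGO2 libraries hold. The family took 0.199% and 0.187% of cluster reads where the gel was omitted, against 0.135% and 0.111% after it. The 3' UTR share of reads over all named clusters was lower after the gel too, at 24.2% and 19.9% against 34.6% and 31.3%. Classes other than UTR, coding, intron and splice site held 64.7% and 72.5% after it, against 45.7% and 52.1%. HNRNPA0, HNRNPA1, HNRNPA2B1 and HNRNPDL had a cluster in each of the 4 libraries, while HNRNPA3, HNRNPAB and HNRNPD did not. Without the gel HNRNPA2B1 had 463 and 336 reads, against 49 and 16 after it. The CPM values after scaling were 554 and 613 against 318 and 211. The groups did not overlap, and the log2 ratio without over with the gel was 1.11 (SE 0.34, adjusted p = 0.289, edgeR quasi-likelihood with Benjamini-Hochberg adjustment). HNRNPA0 reads were 520 and 336 without the gel against 71 and 5 after it, a log2 ratio of 1.11 (SE 0.62, edgeR adjusted p = 0.442) that lay between 0.53 and 3.30 when one library was left out. Its B library with the gel stood far below the others, at 65.8 CPM against 461 in the A library. For HNRNPA1 the log2 ratio was -0.09 (SE 0.37, edgeR adjusted p = 0.947) and for HNRNPDL -0.37 (SE 0.41, edgeR adjusted p = 0.710). In these 1121 genes edgeR called 1 higher (0.0892%) and 2 lower (0.178%) without the gel, and 0 of the 4 members in either direction. At an unadjusted p under 0.05 it had 149 genes, HNRNPA2B1 among them, and DESeq2 called 2 genes and 0 members. The value of 0.53 came without the B library with the gel. Without the A library with the gel, HNRNPA0 alone of the members was called, at 3.30 (edgeR adjusted p = 0.0310), a value that rests on the 5 reads of B.

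Among 20 other hnRNP genes, 6 had at least 50 reads in each FUBP3 and KHSRP RNase I library, with 0 higher in FUBP3 and 2 higher in KHSRP at all doses. Their median of the mean log2 ratio was -1.15, beside -0.64 over the 789 genes and -1.67 over the 3 members. SYNCRIP (0.48) and HNRNPK (-0.91) were highest, and HNRNPH1 (-3.18) and HNRNPU (-1.98) lowest. With at least 10 reads, 14 of the 20 could be compared, and 2 were higher in FUBP3, HNRNPUL1 (2.58) and HNRNPF (1.75), with 2 higher in KHSRP. Of the RNA recognition motif relatives TARDBP, MSI1, MSI2 and DAZAP1, MSI2 stood at 1.85, TARDBP at -0.53 and DAZAP1, lower at every dose, at -1.71, while MSI1 was under the minimum. The list of relatives thus held genes on either side, as the members did.

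By Pearson correlation of log2 shares over the 6 FUBP3 and KHSRP RNase I libraries, given as a description across libraries that share depth and protein, the genes most like HNRNPA1 were XIST (r = 0.997), SASS6 (0.994) and CEP350 (0.991). Those most like HNRNPD were PTCD3 (0.991), ARIH1 (0.989) and HNRNPC (0.985). HNRNPA2B1 had less similar neighbours, SSBP1 (0.960), TBCK (0.939) and FAF1 (0.929).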

How the data were processed

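The deposited files list clusters called by the authors in single libraries, with raw counts of reads, the T-to-C fraction and, except for U2AF1, counts of distinct sequences and a conversion specificity score, per the file headers. The submitters' processing notes name bcl2fastq 2.20.0, cutadapt 1.15 and hg38. The aligner, cluster caller and annotation are each not given in the sources used here. Cluster sequences were identical to RefSeq promoter sequences at 1476 of 1476 overlaps in hg38 libraries and at 4 of 261 in the AGO2 gel libraries, whose coordinates are therefore not used. The 4 AGO2 samples without a cluster file were not analysed here.

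Reads were summed per gene name, split at joined names, over all cluster reads of a library. Reads outside clusters are not in these sums, and joint region classes were kept as a class of their own, except for U2AF1. There a joint class naming a splice site counted as splice site, and otherwise one naming the 3' UTR counted as 3' UTR. Of the rest, coding sequence came before 5' UTR, and coding sequence joined with intron was kept apart. Ratios and levels of single libraries carry 95% Poisson or conditional binomial intervals and shares of clusters Wilson intervals at 95%. PCR reads are not independent molecules, so intervals and limits cover counting error only. A 0 was given the limit of 3 reads. Genes with at least 50 reads (or 10, where stated) per library were compared, and 2-fold was the call without replicates. MicroRNA sequences are from RefSeq, where all 14 families matched.

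For the gel comparison edgeR 4.0.16 with limma 3.58.1 in R 4.3.3 was run on genes with at least 10 reads in all and a cluster in each of the 4 libraries, after a test on simulated data, with Benjamini-Hochberg adjustment over all 1121 genes at 0.05; DESeq2 1.42.0 was an alternative. The labels do not say whether libraries A and B came from separate cultures, so p-values measure spread that may be technical. All 7 members were named; of the fixed lists at most 2 genes each way; as like genes the 3 with the highest correlation; and for each member its 3 merged sites with the highest mean share were examined, while other clusters named were chosen after their values were seen. The members and lists were chosen with earlier results of these data known. Other software was Python 3.11.15, numpy 2.4.6, pandas 2.3.3, scipy 1.17.1 and matplotlib 3.10.9.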

Additional observations from a re-analysis of the deposited data

Results flagged for a closer look

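Several members moved in opposite directions with RNase I dose in FUBP3 and KHSRP, with both counting intervals clear of 0; each dose was 1 library, and the difference between the proteins was not tested. For the share at 0.15 over 0.5 U/ul, the log2 ratio in FUBP3 and in KHSRP was 3.05 and -0.27 for HNRNPA2B1, 0.10 and -0.64 for HNRNPA0, -0.33 and 0.84 for HNRNPAB, and 0.64 and -0.17 for HNRNPD. In the HNRNPA2B1 3' UTR region it was 6.51 and -0.14. For the share at 0.15 over 1.5 U/ul it was 1.53 and -0.19 for HNRNPA2B1 as a whole and 2.15 and -1.07 in the 3' UTR region.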

How the results depend on the processing

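Of 120 recomputed values of single members, 9 changed sign, among them the 4 given with their values in these paragraphs; in the other 5, all dose ratios, the reported log2 value was at most 0.19 from 0. The count of members at least 2-fold apart between FUBP3 and KHSRP, 1 of 3, was 3 of 7 with at least 10 reads (11.7% of all genes) and 0 with median-of-ratios scaling (10.1%). Alternatives added after seeing the data gave 3 of 3 with a specificity score of at least 0.7 (30.2% of genes), 2 without the HNRNPA2B1 3' UTR region, and 2 of 6 without the 1.5 U/ul libraries (23.7%). For FUBP3 at 0.15 against 0.5 U/ul the count fell to 0 with that score (6.50% of genes) and 0 without the region; against 1.5 U/ul it was 1 without the region, and the HNRNPA2B1 ratio turned to -1.49 with that score. KHSRP at 0.15 against 1.5 U/ul gave 2 of 7 members with at least 10 reads (39.0% of genes either way), and CPSF1 against KHSRP 5 of 5 (58.7%). With clusters of at least 10 reads, 60 of 255 sites were shared by FUBP3 and KHSRP. The cause of these shifts was not tested, apart from the libraries, sites and genes each alternative removes or adds.

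In the gel comparison 53 genes were called with no filter beyond 1 read, when 10809 genes were tested, and 19 with distinct sequences. Leaving out one library gave 0 to 15 called genes, with 0 without the B library with the gel. With the replicate letter as a replicate block 3 genes were called and no call on a member changed; same-letter libraries did not deviate together (r = -0.0119 over 1121 genes), so the letters were not taken to pair libraries. The log2 ratio of HNRNPA1 turned to 0.065 with no filter and lay between -0.44 and 0.53 when one library was left out, and that of HNRNPDL between -0.61 and 0.094. The positive values came without the B library with the gel for HNRNPA1 and without the A library with the gel for HNRNPDL. HNRNPA3, HNRNPAB and HNRNPD had at most 29 reads in CPSF1, in fluorescent AGO2 and in AGO2 after the gel, which bounds the precision of their values there.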
